A study of Homo sapiens with 4 samples.

Results

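The platelet-derived growth factor (PDGF) ligands and receptors were examined in U118-MG, an established human glioma line. The members were taken by gene symbol from the deposited count table: the ligand genes PDGFA, PDGFB, PDGFC and PDGFD, the receptor genes PDGFRA and PDGFRB, and PDGFRL, which encodes a receptor-like protein. They are 7 of the 61806 genes in the table. All cells were kept at 37 °C and 5% CO2 in DMEM that contained 10% fetal bovine serum, and every sample carries the genotype label WT. The NC group (2 libraries) had been infected with a negative control lentivirus and the SPNS2 group (2 libraries) with a lentivirus for SPNS2, both built on pCDH-CMV-MCS-EF1-puro, in which a CMV promoter drives the insert. SPNS2 is a membrane transporter that exports sphingosine 1-phosphate. The labels do not say whether the infected cells were pools or clones, nor whether a group's libraries stem from separate cultures, so p-values measure the spread between these libraries, which may be technical. No protein was measured, and fewer cells that express a gene cannot be told apart from less RNA per cell.

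PDGFs are dimers of A, B, C or D chains that bring together a pair of receptor chains, which then phosphorylate each other on tyrosines. PDGFRα binds A, B and C chains, whereas PDGFRβ binds B and D chains. PDGF-C and PDGF-D are secreted in a latent form and bind only after a protease removes a domain. In the nervous system PDGFRA marks oligodendrocyte precursors, PDGFRB marks pericytes, and PDGFRA is among the receptor genes amplified in glioma.

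The libraries held 31353373 to 34125159 assigned counts. SPNS2 itself checked the labels, with 42 and 47 counts in NC against 7381 and 8224 in SPNS2. Among markers of glioma and astrocytes, 5 of 10 were under 1 CPM (counts relative to the TMM-scaled library size). GFAP had 0, 8, 4 and 0 counts and S100B had 0 in every library. VIM (4392 ± 497 CPM, SD, in NC), CD44 (335 ± 0.0846 CPM) and SOX9 (70.7 ± 7.55 CPM) were present. SLC1A3 rose from 36 and 31 counts in NC to 621 and 595 in SPNS2 (log2 fold change 4.21, edgeR adjusted p = 0.00158). VIM also rose (0.57, 0.0205) and NES fell (-0.84, 0.0243). CD44 and SOX9 both changed by 0.23 (edgeR adjusted p = 0.117 and 0.159). SLC1A3, NES and SOX9 were named after their values were seen. Of 8 markers of oligodendrocyte precursors, which include PDGFRA, 5 were under 1 CPM. SOX10 had no counts, OLIG2 had 4 in 1 NC library and OLIG1 had 1 in 1 SPNS2 library, while CSPG4 stood at 363 ± 10.1 CPM in NC. Leukocyte PTPRC and endothelial CLDN5 had 4 to 10 and 0 counts in NC.

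PDGFRA was by far the most abundant member and the one that fell most among those called, 2.79-fold from NC to SPNS2. PDGFRB was 1.33-fold higher, so the receptor transcripts moved in opposite directions. PDGFC was the leading ligand and fell 1.49-fold. A gene was called at a Benjamini-Hochberg adjusted p under 0.05 in edgeR's two-sided quasi-likelihood test over 17853 genes with enough counts. By this rule 6 of the 7 members were tested, of which 1 was called higher and 2 lower. Over all tested genes 23.4% were called, 12.1% higher and 11.3% lower, and among the 11414 genes that averaged 5 CPM or more the share was 29.1%. Calls were therefore common in these libraries, and the members are described one by one. Groups that do not overlap are weak evidence here, as 2 against 2 libraries cannot give an exact permutation p below 0.333. The share of all tested genes whose groups did not overlap was not counted.

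**Figure D1:**
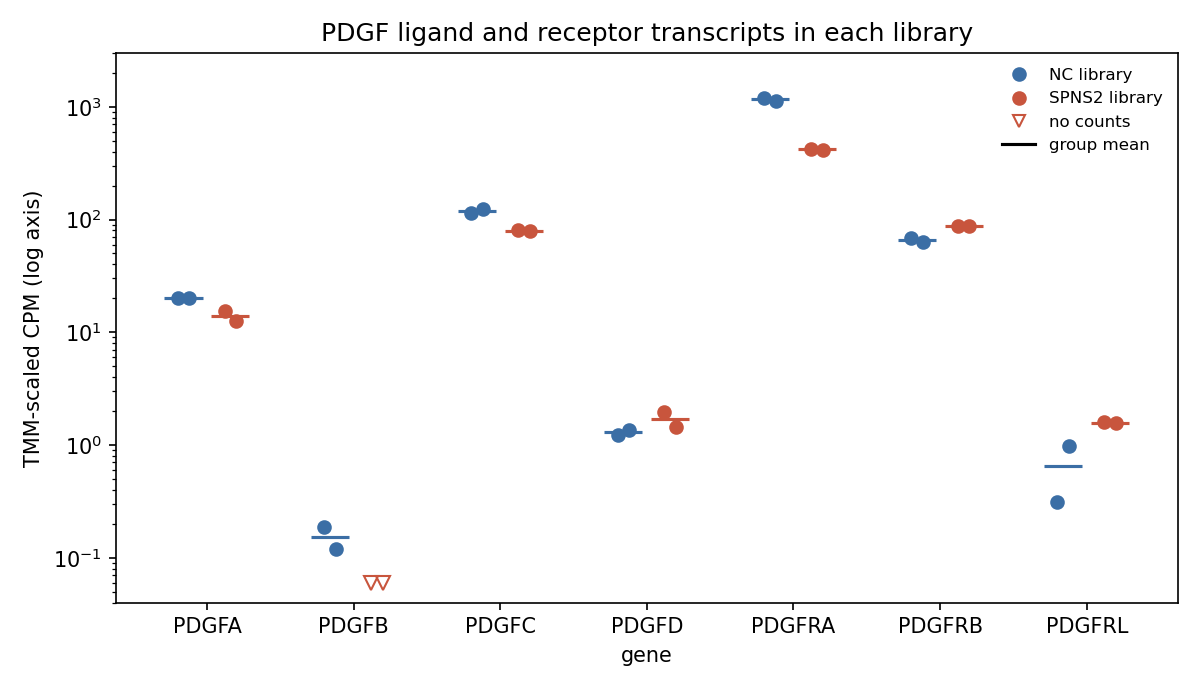
TMM-scaled CPM of the 7 PDGF family genes on a log axis; each point is 1 library, short lines are group means (n = 2), and open triangles mark libraries with no counts. PDGFRA lies at 1128 and 1205 CPM in the NC libraries and between 413 and 425 in the SPNS2 libraries, PDGFC and PDGFRB lie between 60 and 130, and PDGFB, PDGFD and PDGFRL lie below 2.

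The promoter stretches below are those of the receptor genes, shown because these were called in opposite directions. They are RefSeq sequences on GRCh38.p14, read 5′ to 3′ on the gene's strand, cut to bases outside annotated exons. Capitals mark GC boxes (GGGCGG or its reverse complement CCGCCC) and CCAAT boxes (CCAAT or ATTGG). The first stretch precedes an internal start of PDGFRA at chr4:54233710-54233959 on the plus strand, inside an intron of the longest gene model. The second precedes PDGFRB at chr5:150155873-150156095 on the minus strand.
PDGFRA: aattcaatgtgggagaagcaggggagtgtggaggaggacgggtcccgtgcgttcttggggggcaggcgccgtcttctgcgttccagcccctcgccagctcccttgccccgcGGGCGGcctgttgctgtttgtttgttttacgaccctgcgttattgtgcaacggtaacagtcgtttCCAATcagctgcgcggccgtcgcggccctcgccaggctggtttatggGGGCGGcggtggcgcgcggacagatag
PDGFRB: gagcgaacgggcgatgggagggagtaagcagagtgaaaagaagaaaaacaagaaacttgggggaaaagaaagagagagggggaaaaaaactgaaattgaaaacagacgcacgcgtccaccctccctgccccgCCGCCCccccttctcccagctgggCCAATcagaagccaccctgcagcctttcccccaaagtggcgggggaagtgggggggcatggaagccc

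The 250 bases before this PDGFRA start held 2 GC boxes and 1 CCAAT box, with 64% GC and 25 CpG. The 250 bases before the PDGFRB start held 1 GC box and 1 CCAAT box, with 58.4% GC and 9 CpG. Of 35116 promoter windows of that length, 42.6% held a GC box and 32% a CCAAT box, and the medians were 58% GC and 11 CpG. The outermost PDGFRA window, at chr4:54229043-54229292, held neither box and had 46.8% GC and 8 CpG. None of these 3 windows held, on either strand, the TATA box motif TATAAA (10.7% of all windows), the E-box motif CACGTG (6.34%) or the AP-1 motif TGACTCA (4.2%). RefSeq windows were found for 4 of the 7 members. The counts are per gene and do not say which start a transcript used.

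PDGFRA (ENSG00000134853, chr4:54229097-54298247, plus strand, 4q) encodes PDGFRα. It had 38617 and 37957 counts in NC against 13066 and 13780 in SPNS2. On the scaled level this was 1205 and 1128 CPM in NC against 424 and 413 CPM in SPNS2, so both SPNS2 libraries lay far below both NC libraries. The mean fell from 1166 ± 54.2 to 419 ± 8.09 CPM (SD, n = 2). The log2 fold change was -1.48 (SE 0.054, 95% interval -1.62 to -1.33, edgeR adjusted p = 0.00111). The call was made under each of 16 alternative settings, with log2 fold changes from -1.53 to -1.16 and adjusted p-values up to 0.0111. PDGFRA took 0.119% of all counts in NC and 0.0410% in SPNS2. Per kb of exon it was the 224th highest of 17382 tested genes with a known length in NC, at 120 ± 5.57 CPM per kb, and the 979th in SPNS2, at 43.0 ± 0.831. Among all tested genes its log2 fold change was nonetheless only the 1203rd lowest of 17853. That ranking includes genes with few counts, as 11414 of the 17853 averaged 5 CPM or more. A further protein-coding gene model on the same strand, AC058822.1, overlaps PDGFRA and had no counts in any library. The setting that added its counts to PDGFRA is among the 16 and so repeated the main fit for every member.

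PDGFRB (ENSG00000113721, chr5:150113837-150155872, minus strand, 5q) encodes PDGFRβ. It had 2218 and 2116 counts in NC and 2701 and 2915 in SPNS2. The levels were 69.2 and 62.9 CPM against 87.7 and 87.4 CPM, and the groups did not overlap. The log2 fold change was 0.41 (SE 0.076, 95% interval 0.20 to 0.61, edgeR adjusted p = 0.0279). This call was less firm than that of PDGFRA. Leaving out NC replicate 1 or 2 gave adjusted p-values of 0.0618 and 0.104, and leaving out SPNS2 replicate 1 or 2 gave 0.0945 and 0.0985. With arm medians removed from the SPNS2 libraries the log2 fold change was -0.034 (adjusted p = 0.796), since genes of 5q as a whole had a median of 0.43.

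PDGFRL (ENSG00000104213, chr8:17576433-17644071, plus strand, 8p) encodes a secreted protein that resembles the ligand-binding part of PDGFRβ. Its counts were low, 10 and 33 in NC and 49 and 52 in SPNS2, or 0.312 and 0.981 against 1.59 and 1.56 CPM. The SPNS2 libraries agreed closely and lay above both NC libraries, which differed from each other by over 3-fold. The log2 fold change of 1.28 (SE 0.61, 95% interval -0.35 to 2.90) did not pass the test (edgeR adjusted p = 0.207), and it moved to 0.68 and 2.32 when NC replicate 1 or 2 was left out. The end of PDGFRL overlaps MTUS1, a gene for a microtubule-associated protein on the opposite strand, by 277 bases. MTUS1 rose from 122 and 106 counts to 1051 and 1301 (log2 fold change 3.39, SE 0.16, edgeR adjusted p = 0.0017). The strand setting of the counting is not given in the sources used here, so reads of the shared stretch cannot be told apart.

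Within each library the receptor genes can be set against each other without scaling between libraries. Of the counts per kb of exon of PDGFRA and PDGFRB together, PDGFRA made up 92.7% and 92.9% in NC against 78.0% and 77.6% in SPNS2. PDGFRA thus remained the main receptor transcript in every library, but its excess over PDGFRB per kb shrank from 12.8 and 13.2 times to 3.55 and 3.47 times. The log2 ratio differed by -1.89 between the groups, with an exact two-sided permutation p of 0.333, the smallest that 2 against 2 libraries can give.

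**Figure D2:**
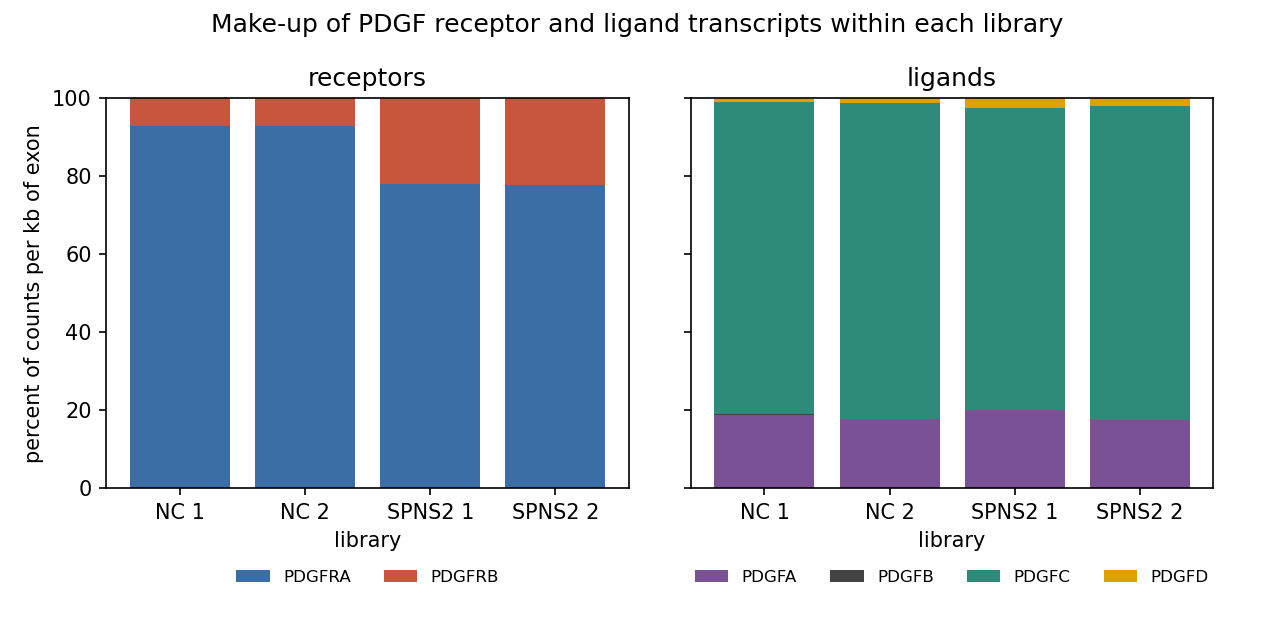
Percent of counts per kb of exon within each library, for the 2 receptor genes (left) and the 4 ligand genes (right). The PDGFRB part of the receptor bar grows from 7.16% on average in NC to 22.2% in SPNS2, while PDGFC takes 77.5% to 80.9% of the ligand bar in all 4 libraries.

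PDGFC (ENSG00000145431, chr4:156760454-156971394, minus strand, 4q) encodes a ligand of PDGFRα that needs activation by a protease. It had 3669 and 4150 counts in NC and 2473 and 2634 in SPNS2, or 114 and 123 CPM against 80.3 and 78.9 CPM. The groups did not overlap. The mean fell from 119 ± 6.28 to 79.6 ± 0.983 CPM. The log2 fold change was -0.58 (SE 0.069, 95% interval -0.76 to -0.39, edgeR adjusted p = 0.0100). The call was lost without SPNS2 replicate 2 (log2 fold change -0.56, adjusted p = 0.0509) and with arm medians removed (-0.26, adjusted p = 0.0662).

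PDGFA (ENSG00000197461, chr7:497258-520296, minus strand, 7p) encodes the A chain, which binds PDGFRα. Its counts were 643 and 676 in NC and 474 and 424 in SPNS2, or 20.06 and 20.09 CPM against 15.4 and 12.7 CPM. Both SPNS2 libraries were below both NC libraries, but they differed more from each other than the NC libraries did. The log2 fold change of -0.51 (SE 0.14, 95% interval -0.90 to -0.13) did not pass edgeR's test (adjusted p = 0.0684), whereas DESeq2 called it (adjusted p = 0.0332). Over the 16 alternatives it ranged from -0.64 to -0.38.

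PDGFD (ENSG00000170962, chr11:103907186-104164379, minus strand, 11q) encodes a ligand of PDGFRβ. It had 39 and 46 counts in NC and 60 and 48 in SPNS2, or 1.22 and 1.37 against 1.95 and 1.44 CPM. The upper NC and the lower SPNS2 library differed by only 2 counts. The log2 fold change was 0.39 with a 95% interval of -0.47 to 1.25 (edgeR adjusted p = 0.444), so a difference was not detectable at this depth. PDGFB (ENSG00000100311, chr22:39223359-39244751, minus strand, 22q), whose product binds both receptors, had 6 and 4 counts in NC and none in either SPNS2 library. It was under the count filter and was not tested. Against a floor of 3 counts over the SPNS2 group, its NC level was 3.25-fold higher. This takes the 10 counts in NC as exact, so it is not a lower limit on the fall. Fitted without the filter PDGFB was not called (edgeR adjusted p = 0.265).

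PDGFC was the main ligand transcript in every library. It held 79.8% and 80.9% of the ligand counts per kb in NC and 77.5% and 80.6% in SPNS2, and PDGFA held 18.9% and 17.8% against 20% and 17.5%. The share of PDGFD was 1.11% and 1.18% in NC and 2.47% and 1.93% in SPNS2, so the groups did not overlap, and that of PDGFB was 0.194% and 0.116% in NC and 0 in SPNS2. Both shares rest on at most 60 counts per library. A share also depends on the other ligands, and PDGFC, the largest part, was called lower while PDGFD itself was not called. The PDGFC to PDGFA ratio was 4.23 and 4.56 in NC and 3.87 and 4.61 in SPNS2, so the groups overlapped (exact permutation p = 1). Per kb, PDGFRA stood highest in both groups, followed in NC by PDGFC (21.3 ± 1.12 CPM per kb), PDGFRB (9.25 ± 0.625) and PDGFA (4.84 ± 0.00533). In SPNS2 these genes kept their order, but PDGFC (14.2 ± 0.176) and PDGFRB (12.3 ± 0.0372) lay closer together. PDGFD (0.303 ± 0.0249 in NC) and PDGFRL (0.268 ± 0.196) were under 1 CPM per kb in both groups. In NC they did not differ from each other beyond their spread. In SPNS2 PDGFRL (0.654 ± 0.00976) lay above PDGFD (0.397 ± 0.0846) by more than their SDs. Each step between the higher genes exceeded the SDs beside it.

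The members were also read against their chromosome arms, of which 4q and 11q had medians below 0 and 5q, 22q, 8p and 7p above. On 4q, which carries PDGFRA and PDGFC, the 436 tested genes had a median log2 fold change of -0.32 with 5.28% called higher and 28.2% lower. PDGFRA lay 1.16 log2 units below that median, as the 57th lowest of the arm, and PDGFC lay 0.26 below it. On 5q, 34.1% of 701 tested genes were called higher, and PDGFRB lay within 0.03 of the arm's median. PDGFD lay 0.78 above the median of 11q (-0.39), an arm on which 27.5% of genes were called lower. The medians of 7p, 8p and 22q were 0.05, 0.16 and 0.16. On 22q, which carries PDGFB, 18.3% of tested genes were called higher and 6.75% lower. DNA copy number was not measured, and its part in these shifts was not tested.

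**Figure D3:**
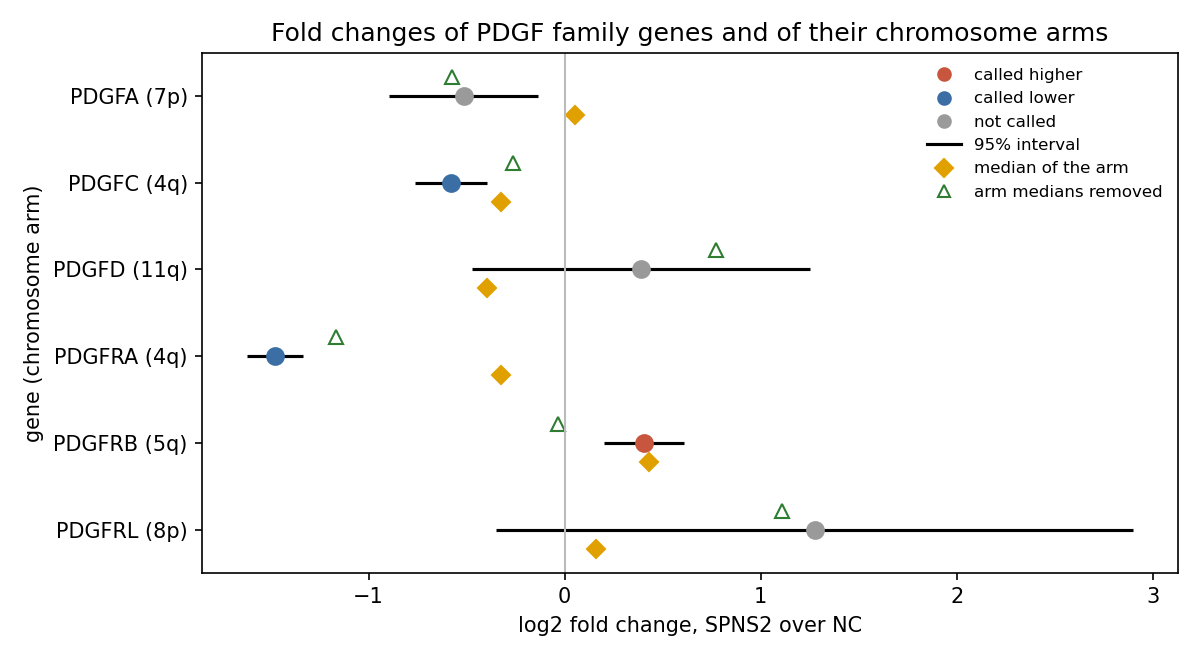
Log2 fold change of SPNS2 over NC (filled circle) with its 95% interval for the 6 tested members, beside the median of all tested genes of the same chromosome arm (diamond) and the member's fold change with arm medians removed (open triangle). PDGFRA stays below -1 on either scale, PDGFRB coincides with its arm at about 0.4, and the intervals of PDGFD and PDGFRL span 0.

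Within 1 Mb of PDGFRA lie 6 tested genes, with 1 called higher, 2 lower and a median log2 fold change of -0.13. SCFD2 was called lower (-0.36, edgeR adjusted p = 0.0298), a call lost with any 1 library left out (0.105 to 0.118). LNX1, which encodes a ubiquitin ligase, fell from 54.6 ± 11.3 to 12.4 ± 0.946 CPM (log2 fold change -2.13, edgeR adjusted p = 0.0048). Both were named after their values were seen. CHIC2, the nearest neighbour on one side, was not called (-0.20, adjusted p = 0.698). KIT, a paralog of PDGFRA and its nearest tested neighbour on the other side, rose from 23.7 and 25.1 to 35.6 and 42.7 CPM (log2 fold change 0.68, SE 0.13, edgeR adjusted p = 0.0276). The KIT call was lost without NC replicate 1 (adjusted p = 0.110), NC replicate 2 (0.0906) or SPNS2 replicate 2 (0.0821). Thus these neighbouring receptor genes, 429 kb apart, had fold changes of opposite sign.

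Around PDGFRB, 10 of 27 tested neighbours were called higher (37.0%) and 2 lower (7.41%), with a median of 0.55. These shares are near those of 5q as a whole, 34.1% higher and 4.28% lower, and over all tested genes 12.1% were called higher and 11.3% lower. CSF1R, a PDGFRB paralog, has a model that starts 464 bases past the end of PDGFRB on the same strand. It had 6 and 19 counts in NC and 58 and 64 in SPNS2 (log2 fold change 2.32, edgeR adjusted p = 0.0552). CDX1 on the other side had 12 counts in each NC library and none in SPNS2. Its call (edgeR adjusted p = 0.0460) was lost without SPNS2 replicate 1 (0.140) or 2 (0.141). PDGFA-DT, which starts 0.095 kb from PDGFA in the other direction, had 52 and 42 counts in NC and 62 and 60 in SPNS2 (edgeR adjusted p = 0.391). The single tested neighbour of PDGFC was GLRB, a glycine receptor subunit gene, which fell from 23.7 ± 2.54 to 9.91 ± 2.11 CPM (log2 fold change -1.26, edgeR adjusted p = 0.0188). That call was lost without NC replicate 1 (0.0562), NC replicate 2 (0.0802) or SPNS2 replicate 2 (0.0530). Near PDGFD and PDGFB, the nearest tested genes CASP4LP, CBX7 and SNORD83A were not called, nor was MTMR7 beside PDGFRL.

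**Figure D4:**
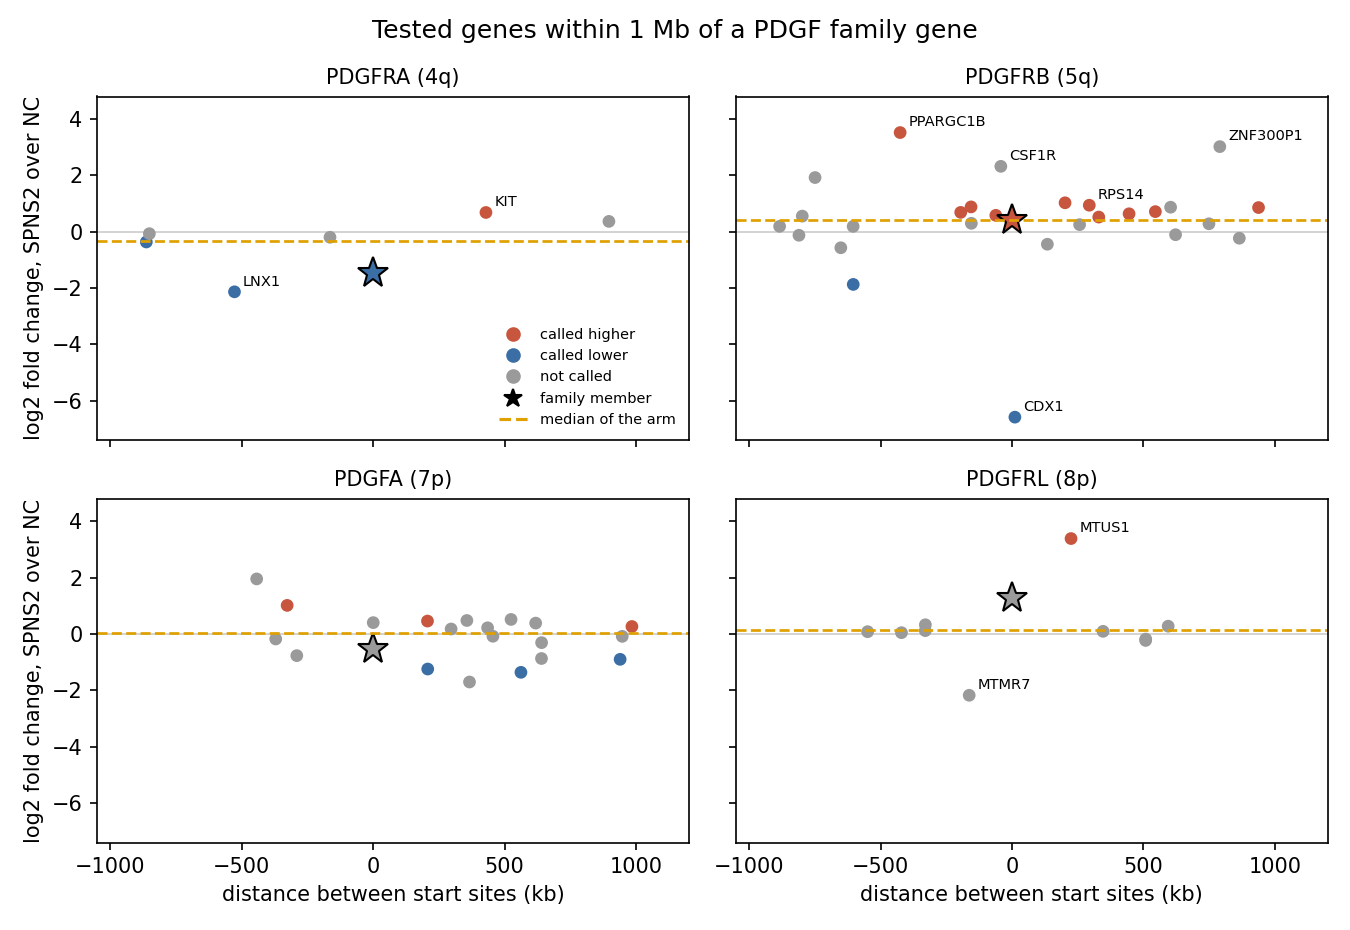
Log2 fold change of each tested gene that starts within 1 Mb of 4 members, against the distance of its start site in kb (positive toward higher coordinates); stars are the members and dashed lines the medians of their arms. PDGFRA and LNX1 lie below the other neighbours on 4q. The median of the PDGFRB neighbours (0.55) is near that of 5q (0.43), but single genes spread from -6.58 to 3.52. The lowest of these is the fitted value of CDX1, which had no counts in SPNS2 and is not a bound.

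Among 58 receptor tyrosine kinase genes, a list written after the counts had been seen, 40 were tested, with 13 called higher, 5 lower and a median log2 fold change of 0.34. This is 45% called, against 23.4% of all tested genes and 29.1% of those that averaged 5 CPM or more. The genes named from it besides PDGFRA and PDGFRB were chosen after their values were seen. Per kb, PDGFRA led this class in NC (120 ± 5.57 CPM per kb), beside AXL (120 ± 3.45), from which it did not differ beyond the spread. In SPNS2 it was the fourth, below AXL (262 ± 5.74), EPHA2 (50.9 ± 0.528) and MET (49.6 ± 0.480). PDGFRA made up 28.5% and 27.4% of the summed level per kb of these genes in NC and 7.84% and 7.24% in SPNS2. The other genes called lower were EPHA4, ROR1, EPHB3 and EPHA7, all but ROR1 ephrin receptors. Further ephrin receptors were called higher, namely EPHB1 (log2 fold change 5.33), EPHB2 (2.15), EPHA2 (2.06) and EPHB4 (0.53). The calls of EPHB3 (adjusted p = 0.0980, 0.10 and 0.0791 without NC replicate 2, SPNS2 replicate 1 and 2) and EPHA7 (0.0748 and 0.0517 without NC replicate 1 and 2) were lost in leave-one-out fits, and those of PDGFRA, EPHA4 and ROR1 were not. PDGFRB moved from the tenth to the eighth place.

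The genes around the receptors were grouped in 5 lists by role. Of their 99 tested genes 22 were called higher and 17 lower, or 39.4% in all, and the median log2 fold change was 0.05 against -0.0085 over all tested genes. Most of these genes are abundant, and 29.1% of genes that averaged 5 CPM or more were called.

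Of 13 genes for ligand processing, binding and co-receptors, 10 were tested, 3 were called higher and 3 lower, with a median of -0.04. PLAU, the urokinase gene, rose from 442 and 444 to 716 and 758 CPM (log2 fold change 0.73, edgeR adjusted p = 0.0031). Urokinase can activate PDGF-D, whose transcript stood at 1.22 to 1.95 CPM here. NRP1, the neuropilin co-receptor, rose from 160 and 181 to 429 and 364 CPM (1.22, adjusted p = 0.0054). PCSK5, a proprotein convertase, rose from a low level (2.2, adjusted p = 0.0148). HSPG2, the basement membrane proteoglycan perlecan, fell from 155 and 154 to 95.8 and 95.1 CPM (-0.69, adjusted p = 0.0043). LRP1, an endocytic receptor that is phosphorylated downstream of PDGFRβ, fell by 0.30 on the log2 scale (adjusted p = 0.0255). FURIN, SPARC and PCSK7 had 0.26, 0.22 and -0.41 and were not called. The calls of LRP1 (adjusted p = 0.0858, 0.0898 and 0.0672 without NC replicate 1, SPNS2 replicate 1 and 2) and PCSK5 (0.0540, 0.0521 and 0.0625 without the same libraries) were lost in leave-one-out fits.

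Of 37 adaptors and effectors that bind or act below the receptors, 36 were tested, 7 were called higher and 4 lower, and 25 were not called (median -0.0048). FYN, a Src family kinase, fell from 123 and 134 to 48.9 and 43.7 CPM (log2 fold change -1.47, edgeR adjusted p = 0.0027), close in size to PDGFRA. PIK3R3, a regulatory subunit of phosphoinositide 3-kinase, fell by 0.93 on the log2 scale (adjusted p = 0.0080). The adaptor gene CRK, named after its values were seen, was also called lower (-0.36, adjusted p = 0.0197), a call lost with any 1 library left out (0.0722 to 0.0935). RASA1, the Ras GTPase-activating protein that docks on PDGFRβ, rose by 0.84 (adjusted p = 0.0048) and lies on 5q. STAT5B (0.92, adjusted p = 0.0117), NCK2 (1.26, 0.0450) and SRC (0.67, 0.0275) also rose. The NCK2 call was lost without SPNS2 replicate 1 (0.129) or 2 (0.116), and that of SRC with any 1 library left out (0.0676 to 0.109). Among the most abundant genes that were not called were PTPN11, a phosphatase that docks on both receptors (log2 fold change -0.17, adjusted p = 0.13), and the adaptor gene SHC1 (-0.23, 0.503).

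Of 20 genes that attenuate the receptors, 18 were tested, 3 were called higher and 6 lower (median -0.013). The cytokine signalling suppressors SOCS3 (110 and 115 to 50.7 and 55.1 CPM, log2 fold change -1.08, edgeR adjusted p = 0.0032) and SOCS1 (-2.72, adjusted p = 0.0173, at 3.87 and 5.26 to 0.910 and 0.480 CPM) fell. So did PTPRJ, a receptor-type phosphatase (-0.52, adjusted p = 0.0296). PTPN1, the phosphatase PTP1B, rose from 115 and 111 to 208 and 204 CPM (0.87, adjusted p = 0.0030), and the endosomal sorting gene HGS (0.67, 0.0155) and the adaptor SH2B3 (0.43, 0.0126) also rose. NF1, PTPN12 and GAK had 0.14, 0.14 and -0.08 and were not called. Calls were lost for PTPRJ with any 1 library left out (0.0743 to 0.115), for SOCS1 without NC replicate 2 (0.0720), and for HGS (0.0733 and 0.0669) and SH2B3 (0.0536 and 0.0660) without NC replicate 1 and 2.

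Growth factor response genes are switched on by receptor signalling, among other stimuli. Of 29 tested, 8 were called higher and 4 lower, with a median of 0.17. CCN1, a secreted matrix protein, rose from 58.2 and 58.0 to 419 and 370 CPM (log2 fold change 2.76, edgeR adjusted p = 0.00093). The transcription factor EGR1 rose from 22 and 18.4 to 77.9 and 65.1 CPM (1.82, adjusted p = 0.0043), DUSP4, a MAP kinase phosphatase, by 1.69 (0.0013) and SPRY4, a feedback inhibitor, by 1.01 (0.0111). PLAUR (0.97, adjusted p = 0.0023), KLF6 (0.96, 0.0082), ETV4 (0.88, 0.0323) and JUN (0.76, 0.0062) were the other genes called higher. ATF3 (-1.70, adjusted p = 0.0051) and IL6 (-1.09, 0.0244) fell, as did DUSP1 (-0.38, 0.0366) and CCND1 (-0.26, 0.0233). PLAUR, KLF6, ETV4, JUN, DUSP1 and CCND1 were named after their values were seen. EGR1, SPRY4 and DUSP1 lie on 5q, where 34.1% of tested genes were called higher and 4.28% lower. The IL6 call was lost with any 1 library left out (0.0660 to 0.0990), as was that of DUSP1 (0.0745 to 0.129). CCND1 was lost without NC replicate 1 (0.0667), NC replicate 2 (0.0953) and SPNS2 replicate 1 (0.0737). PHLDA1, ODC1 and HAS2, the most abundant of those not called, had 0.05, -0.10 and 0.17. The list thus held called genes in both directions.

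Of 7 other type III receptor kinases and their ligands, the closest relatives of the PDGF receptors, 6 were tested and KIT alone was called. The ligand genes KITLG (-0.0022), CSF1 (0.07) and FLT3LG (-0.56) were not called by edgeR (adjusted p = 0.984, 0.780 and 0.0664).

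**Figure D5:**
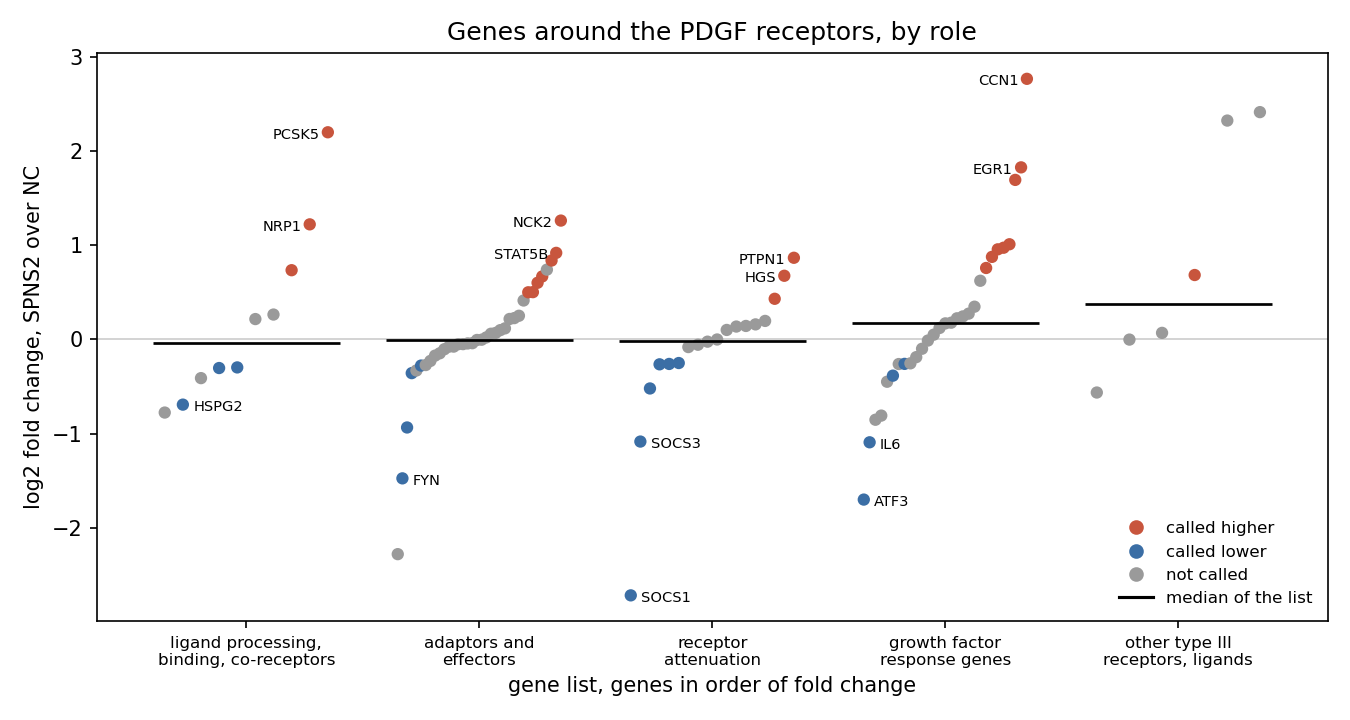
Log2 fold change of SPNS2 over NC for the tested genes of 5 lists; points are genes in order of fold change, colours give the call and black lines the list medians. The medians lie between -0.04 and 0.38, and called genes stand on both sides of 0 in every list but the last.

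The genes whose levels across the 4 libraries were most like each called member were found among the 11414 genes that averaged 5 CPM or more, by the root mean square difference of log2 levels centred on their mean. For PDGFRA these were GJA1, the gap junction protein connexin 43 (0.0182), PSD3 (0.0209) and RAB27B (0.0229). GJA1 stood at 495 and 469 CPM in NC and 177 and 176 CPM in SPNS2. For PDGFC they were VEGFC (0.0163), SNAPC5 (0.0165) and HAGH (0.0167). VEGFC, a lymphatic growth factor gene of the same wider family as the PDGFs, lies on 4q too, and stood at 257 and 274 CPM in NC and 184 and 180 CPM in SPNS2. For PDGFRB they were HNRNPA2B1 (0.0108), BICD2 (0.0124) and RETREG3 (0.0126). With 4 libraries in 2 groups, likeness mostly restates a similar fold change.

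Markers of other cell types that carry these receptors were read beside them, and their part in the results was not tested. The single markers named were chosen after their values were seen. Of 10 pericyte and mural markers, which include PDGFRB, 9 were tested, 3 were called higher and 3 lower. This is 66.7% called, against 23.4% of all tested genes and 29.1% of those that averaged 5 CPM or more. The summed level of these markers was 764 to 786 CPM in NC and 652 to 655 CPM in SPNS2. NOTCH3 fell from 33.5 to 2.57 CPM (edgeR adjusted p = 0.00093) and ANPEP from 265 to 195 CPM (0.0104). KCNJ8 (log2 fold change 0.90, adjusted p = 0.0438) and ABCC9 (0.47, 0.0382) rose as PDGFRB did, and both calls were lost with any 1 library left out (0.0939 to 0.157 and 0.0683 to 0.121). Of 8 fibroblast markers 1 was called higher and 4 lower, or 62.5% in all. The sum went from 5243 to 5400 CPM in NC to 4166 to 4359 CPM in SPNS2. DCN (609 to 18.6 CPM, edgeR adjusted p = 0.0019) and LUM (954 to 90.4 CPM, 0.0024) fell with PDGFRA, while COL1A1 (1363 to 1851 CPM, 0.0048) rose. In the oligodendrocyte precursor list NKX2-2 rose from 23.8 to 33.5 CPM and CSPG4 fell from 363 to 307 CPM (adjusted p = 0.0336 and 0.0363), calls that were lost with any 1 library left out (0.0848 to 0.127 and 0.0998 to 0.149). The endothelial markers summed to 5.15 to 6.78 CPM in NC and 7.70 to 8.57 CPM in SPNS2. The leukocyte markers summed to 112 to 131 CPM in NC and 68.5 to 78.6 CPM in SPNS2, nearly all of it CD68, with 4 of 6 under 1 CPM.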

How the data were processed

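RNA sequencing counts of 4 libraries were analysed. The authors deposited raw counts per Ensembl gene, and Trim Galore 0.6.9, HISAT2 2.2.1, featureCounts 0.3 and hg38 come from the submitters' processing notes. The strand setting, annotation release and handling of multiply matching reads are not given there. The table held 61806 genes, and 1 row without counts was left out. Genes were kept by filterByExpr (minimum count 10, minimum total 15), scaled by TMM and tested with edgeR 4.0.16 in R 4.3.3 with a group term. Benjamini-Hochberg adjustment ran over the 17853 tested genes. The SE is the log2 fold change divided by the square root of F. Levels per kb use all exons of GENCODE release 29 (GRCh38). Alternatives used DESeq2 1.42.0, limma 3.58.1 (voom), other scalings and filters, a replicate block and leave-one-out fits. Further ones were removal of arm medians (approximate centromeres), glmTreat and summing of members with gene models that overlap them on the same strand. Code was tested on simulated data. The members and lists were chosen with earlier results of these data known. Named were all members, per list the 6 called genes of largest fold change and the 3 most abundant not called, the nearest tested neighbour on each side, overlapping genes and the 3 genes most like each called member; others are marked as named later. Some genes of the lists enter the counts but are not reported here by name.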

Additional observations from a re-analysis of the deposited data

How the results depend on the processing

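The replicate numbers pair nothing in the labels, and deviations of same-numbered libraries correlated at -0.078. With a replicate block 1039 genes were called higher and 937 lower (2161 and 2010 without it), 0 members higher, 6 pathway genes lower (17 without it), and PDGFRB had 0.41 (adjusted p = 0.0682). With glmTreat against a fold of 1.2 the counts were 1204, 1190, 0 and 7, and PDGFRB had 0.41 (adjusted p = 0.112). With arm medians removed 0 members were called higher, 1 lower and 11 pathway genes lower, PDGFC had -0.26 and PDGFRB reversed to -0.034. Leaving out 1 library gave 950 to 1093 genes higher, 762 to 1051 lower, 0 members higher, 1 to 2 lower, 7 to 8 pathway genes lower, PDGFRB log2 fold changes of 0.34 to 0.48 and PDGFC values of -0.63 to -0.53; a lone library was assumed to vary like the other group. Fewer samples enter these fits; otherwise the cause was not tested. DESeq2 called PDGFA at -0.51. The share of PDGFRA among receptor counts was 94.6% in NC and 82.7% in SPNS2 without division by length. Neighbours called lower numbered 6 within 500 kb and 11 within 1 Mb. PDGFRA was called under every alternative, and PDGFD and PDGFRL under none. The counts of PDGFB, PDGFD and PDGFRL limit what could be detected for them.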
